A study of Mus musculus with 19 samples.

Results

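Expression of 10 genes of bile acid synthesis and bile secretion was followed in mice fed an atherogenic diet and given oil palm phenolics (OPP) or distilled water to drink. They were Cyp7a1, Cyp8b1, Cyp27a1, Cyp7b1, Abcb11, Slc10a1, Abcg5, Abcg8, Nr0b2 and Nr1h4, taken by symbol from 14776 named genes, and they had 11 of the 24048 probes of the Illumina MouseRef-8 arrays. In the AD + OPP livers none of them changed past the adjusted threshold. The signals of Cyp8b1 and Cyp7b1 averaged lower there, at 0.461 and 0.504 of the geometric means in AD + DW livers, with spreads between mice that reached across both groups. Abcg5 was lower in every AD + OPP liver than in any AD + DW liver, though narrowly, as were 4.36% of all tested liver probes. Cyp7a1, Cyp27a1, Abcb11 and Nr1h4 had means within 1.19-fold of each other between the groups. Outside the liver, only Cyp27a1 was detected.

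Total RNA came from male BALB/c mice, 12 weeks of age, that all ate the high-fat diet with cholesterol for 6 weeks. The AD + OPP group drank OPP, a water-soluble extract of the oil palm fruit that held 1500 ppm of phenolics as gallic acid equivalents, and the AD + DW group drank distilled water. The arrays were 3 livers, 3 spleens and 3 hearts of AD + OPP mice, and 4 livers, 3 spleens and 3 hearts of AD + DW mice. Mice were killed after an overnight fast and were housed several to a cage. The cage of each mouse is not given in the labels, so an effect of the cage and one of OPP cannot be told apart. Groups on a normal diet were not analysed here, so the values below say nothing of the diet itself.

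Hepatocytes turn cholesterol into bile acids by a pair of routes. In the classical route, Cyp7a1 makes the first and rate-limiting step and Cyp8b1 directs the product toward cholic acid. In the alternative route, Cyp27a1 oxidizes the side chain and Cyp7b1 hydroxylates the resulting oxysterols. Slc10a1 takes bile acids up from the blood, Abcb11 pumps them into the bile canaliculus, and Abcg5 and Abcg8 pair to move cholesterol into bile. The bile acid receptor FXR, encoded by Nr1h4, induces Nr0b2 (SHP), a repressor of Cyp7a1 and Cyp8b1.

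The authors' normalized signals were background-subtracted intensities on a linear scale. A probe counted as detected where its Detection Level, which is 1 minus a detection p, was above 0.99. Between 6105 and 6883 probes were detected in a liver, 5863 to 7524 in a spleen and 6554 to 7576 in a heart. All 10 measured hepatocyte markers were detected on all 7 livers, with a mean log2 signal between 13.10 and 13.81 in AD + OPP livers and between 13.24 and 13.59 in AD + DW livers. None of 6 measured bile duct cell markers was detected on every liver, and 5 were detected on 0 livers. Liver AD + DW replicate 3 stood apart in markers of exocrine pancreas, whose mean log2 signal was 5.80 to 6.04 in AD + OPP livers, 5.30 to 5.75 in the other AD + DW livers and 12.05 in that liver.

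The 11 probes were detected mainly in the liver. On all 7 livers, 9 probes of 8 genes were detected, and these were tested with limma on log2 signals floored at 10. Slc10a1 was detected on 1 of 3 AD + OPP livers and 2 of 4 AD + DW livers, and Nr0b2 on 0 of the 19 arrays, so neither was tested. Among the 6 spleens and the 6 hearts, the brighter of the 2 Cyp27a1 probes was detected on every array and the other 10 probes on 0 arrays.

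**Figure D1:**
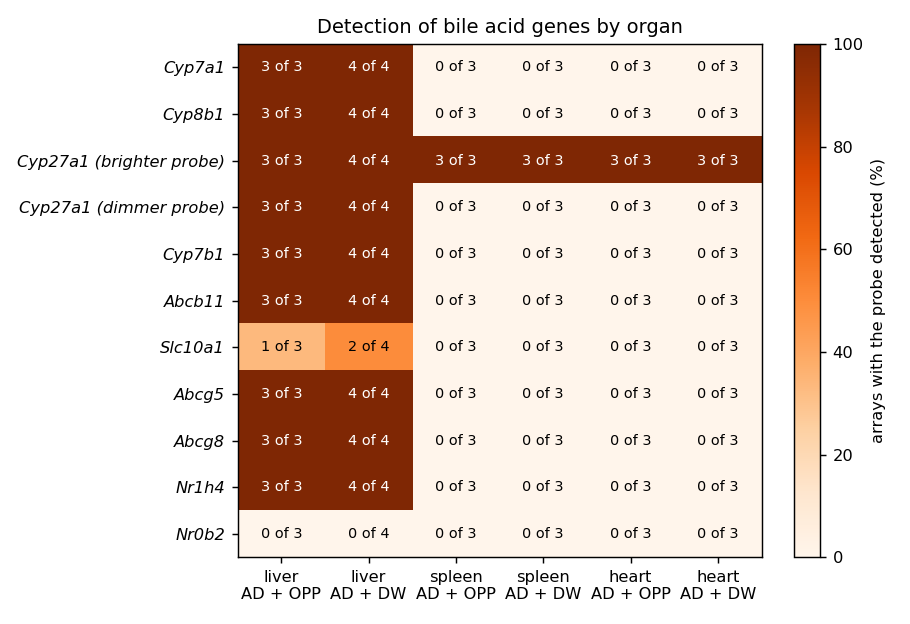
Number of arrays on which each probe of the bile acid genes had a Detection Level above 0.99, by organ (columns) and probe (rows), with the colour giving the percent of the arrays of that group. Of the 11 probes, 9 were detected on all 7 livers and 1 on all 6 spleens and all 6 hearts.

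Of the 8 tested genes, 2 were higher and 6 lower in AD + OPP livers, and 0 passed an adjusted p of 0.05 with limma. Over all 6007 probes tested in the liver, 0% passed, and 8.24% had an unadjusted p under 0.05 in either direction. Of the 8 genes 1, Abcg5, had such a p, a share of the same order as that background. The median log2 fold change of the 8 genes was -0.16, beside -0.00 over all tested probes, and the single values lay between -1.12 and 0.25. Without AD + DW liver 3, the one with pancreas markers, the values were -1.06 for Cyp8b1, -0.95 for Cyp7b1 and -0.38 for Abcg5, 0.61 for Cyp7a1, and between -0.21 and 0.12 for the other 4 genes. In RNA from whole liver, fewer hepatocytes and less RNA per hepatocyte cannot be told apart.

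Cyp7a1, the rate-limiting enzyme, had signals of 2876, 1880 and 4961 in the 3 AD + OPP livers, and of 3468, 1151, 5388 and 1878.5 in the 4 AD + DW livers. The groups overlapped throughout, with both the lowest and the highest liver in the AD + DW group. The log2 fold change was 0.25 ± 0.54 (SE), with a 95% interval from -0.999 to 1.49 and an adjusted p of 0.911. Its range over the 7 livers was 4.68-fold, and 3.91% of tested probes ranged more widely.

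Cyp8b1, the 12-alpha sterol hydroxylase that sets the share of cholic acid, had signals of 5352, 1749 and 10906 in AD + OPP livers. The AD + DW livers had 9612, 14067, 11347 and 6880.5. AD + OPP livers 1 and 2 lay below every AD + DW liver and AD + OPP liver 3 lay among them. The group means were 6002 ± 4613 in AD + OPP livers and 10477 ± 3018 in AD + DW livers (SD, n = 3 and 4). Its log2 fold change was -1.12 ± 0.56 (SE), with a 95% interval from -2.40 to 0.17, an unadjusted p of 0.0802 and an adjusted p of 0.606 with limma. Its size depended on which livers were in the fit. Leaving out AD + OPP replicate 2 gave -0.41, whereas leaving out AD + OPP replicate 3 gave -1.73 (adjusted p = 0.229).

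The promoter of Cyp8b1 is shown because its signal had the largest mean difference of the tested genes. The RefSeq window of GRCm38.p6 at chr9:121916256-121916555, minus strand, runs from 250 bases before the start site to 50 after it. Capitals mark a match to CAAAGTCCA, a core sequence bound by HNF4, the nuclear receptor that drives Cyp8b1 in hepatocytes. It began at position -67, with the start site at 0, and 0.475% of 32851 promoter windows held these letters on either strand.
Cyp8b1: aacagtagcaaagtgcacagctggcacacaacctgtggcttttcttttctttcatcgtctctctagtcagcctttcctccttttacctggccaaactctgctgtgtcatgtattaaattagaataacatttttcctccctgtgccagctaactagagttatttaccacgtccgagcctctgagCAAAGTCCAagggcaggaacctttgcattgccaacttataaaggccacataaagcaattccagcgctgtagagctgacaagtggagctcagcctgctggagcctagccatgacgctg

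Cyp7b1, the oxysterol hydroxylase of the alternative route, gave signals of 2949, 1142 and 10129 in AD + OPP livers, and of 6231, 10655, 6957 and 3725 in AD + DW livers. As for Cyp8b1, AD + OPP livers 1 and 2 were the lowest, and AD + OPP liver 3 exceeded all but 1 of the AD + DW livers. The log2 fold change was -0.99 ± 0.68 (SE; 95% interval -2.55 to 0.57; adjusted p = 0.684). Leaving out AD + OPP replicate 2 gave -0.24, whereas leaving out AD + OPP replicate 3 gave -1.81. The 9.33-fold range over the 7 livers of Cyp7b1 and the 8.04-fold range of Cyp8b1 were exceeded by 1.10% and 1.37% of tested probes, while the median tested probe ranged 1.64-fold.

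Cyp27a1, the mitochondrial enzyme that opens the alternative route, was read by a pair of probes. The brighter probe had signals of 5542, 3450 and 4568.5 in AD + OPP livers, and of 4347, 6172, 3981 and 4211 in AD + DW livers. Its log2 fold change was -0.05 ± 0.22 (SE), with an adjusted p of 0.957. The dimmer probe ranged from 614 to 819 in AD + OPP livers and from 591 to 835 in AD + DW livers, and its log2 fold change was -0.06 (adjusted p = 0.940). Both probes thus gave overlapping groups and a difference near 0, although they ranked the livers differently.

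**Figure D2:**
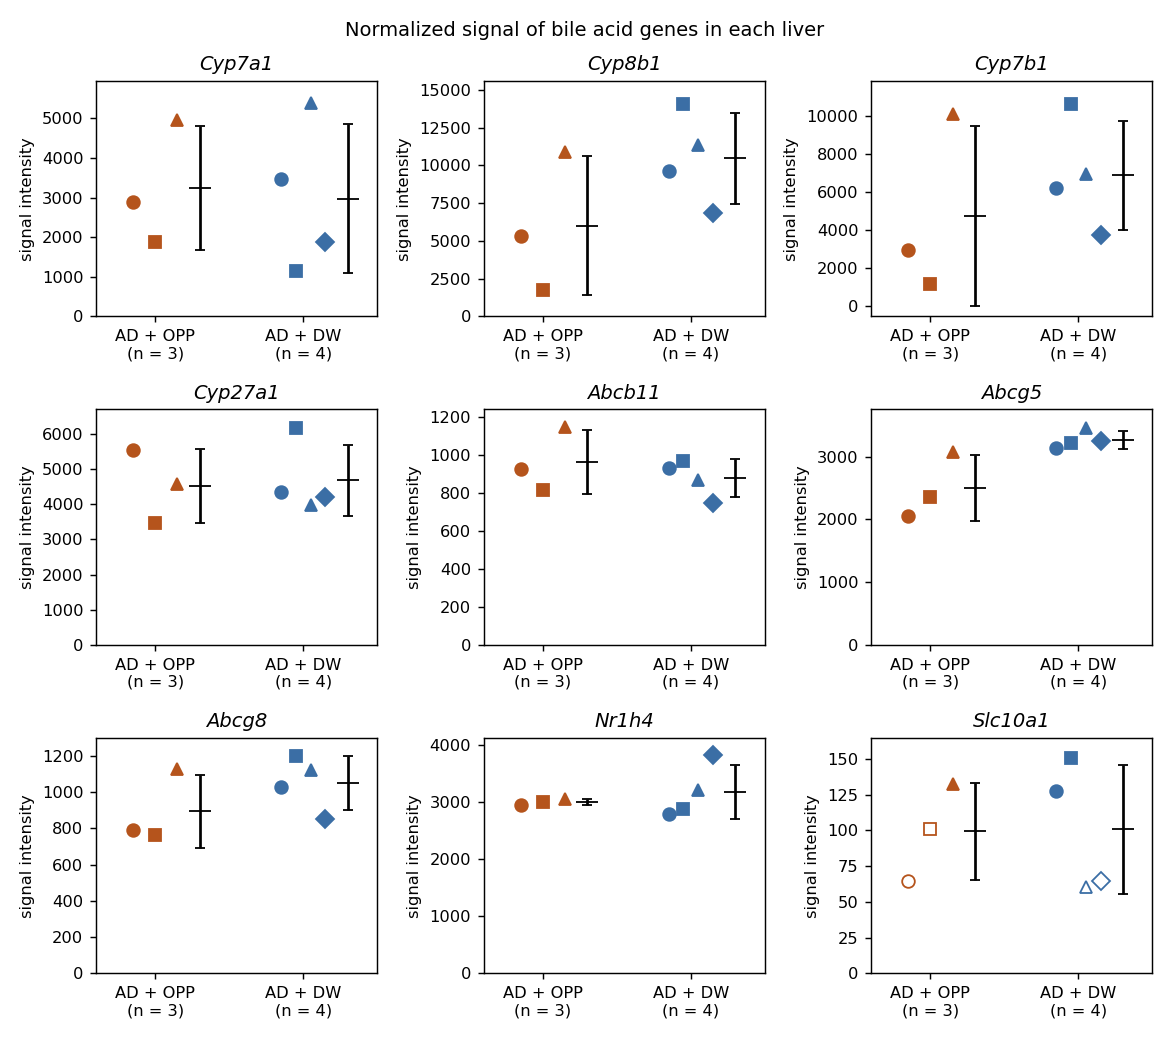
Normalized signal intensity (vertical axes, linear scale) of 9 bile acid genes in each AD + OPP liver (left, n = 3) and AD + DW liver (right, n = 4), with the marker shape giving the replicate number, open markers a probe not detected on that array, and bars the mean with SD. Cyp27a1 is the brighter probe. The 3 AD + OPP livers lay between 2048 and 3074 for Abcg5, below all AD + DW livers, as held for 4.36% of all tested liver probes. The groups overlapped for the other 8 genes.

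Among the transporters, Slc10a1 (NTCP), the uptake carrier of the sinusoidal membrane, was dim. Its signals were 64.8, 101 and 132 in AD + OPP livers, and 128, 151, 60.7 and 64.3 in AD + DW livers. The 3 signals of 128 or more were detected and the other 4 were not. This probe gave no measured difference. A low signal on one probe does not give the level of the transcript against that of other genes.

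Abcb11, the bile salt export pump, had signals of 928, 814 and 1149 in AD + OPP livers and 934, 969, 866.5 and 747 in AD + DW livers. The groups overlapped, with a log2 fold change of 0.13 ± 0.16 (SE), a 95% interval from -0.25 to 0.50 and an adjusted p of 0.830. In its RefSeq promoter window (GRCm38.p6, chr2:69342567-69342866, minus strand) the capitals mark 1 match to GGNCANTGNCC, the inverted repeat with a spacer of 1 base that FXR binds with RXR. It is shown because Abcb11 is a direct target of FXR. The match began at position -62, and 0.676% of promoter windows held such a match. The pattern GGNCANTGNCC reads alike on both strands.
Abcb11: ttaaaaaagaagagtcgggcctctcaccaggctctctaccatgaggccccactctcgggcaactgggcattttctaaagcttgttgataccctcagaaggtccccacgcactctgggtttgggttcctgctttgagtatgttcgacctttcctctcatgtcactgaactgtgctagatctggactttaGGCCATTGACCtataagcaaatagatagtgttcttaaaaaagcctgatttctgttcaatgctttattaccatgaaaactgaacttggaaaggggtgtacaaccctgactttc

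Abcg5 and Abcg8 encode both parts of the sterol exporter of the canalicular membrane. Abcg5 had signals of 2048, 2361 and 3074 in AD + OPP livers, and of 3135, 3216, 3463 and 3256.5 in AD + DW livers. Every AD + OPP liver lay below every AD + DW liver, though AD + OPP liver 3 missed the lowest of them narrowly. Over all probes tested in the liver, 4.36% showed no overlap with the AD + OPP group lower. The means were 2494 ± 526 in AD + OPP livers and 3268 ± 140 in AD + DW livers (SD, n = 3 and 4), and the ratio of the geometric means was 0.753. The log2 fold change was -0.41 ± 0.16 (SE), with a 95% interval from -0.78 to -0.04, an unadjusted p of 0.0331 and an adjusted p of 0.590 with limma. This unadjusted p passed 0.05 in the main test and under 10 of 15 other ways of processing, and in 1 of the 7 fits that each left out a liver.

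Abcg8 had signals of 793, 766 and 1126 in AD + OPP livers, and of 1027, 1199, 1125 and 854.5 in AD + DW livers. AD + OPP liver 3 lay within the AD + DW group here, and the log2 fold change was -0.24 ± 0.19 (SE), with a 95% interval from -0.68 to 0.19 and an adjusted p of 0.707. The difference in response between the partners was not tested.

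The start sites of Abcg5 and Abcg8 lie head to head, 110 bases apart, and both promoters are shown for that reason. Their RefSeq windows of GRCm38.p6, chr17:84682962-84683261 on the minus strand for Abcg5 and chr17:84682871-84683170 on the plus strand for Abcg8, overlap over chr17:84682962-84683170. Each was searched on both strands for AGATAA, a form of the site bound by GATA factors, and capitals mark the matches. Both windows held 3, and 11.2% of all promoter windows held at least 1. The 3 matches of Abcg5 and those of Abcg8 are the same sites read on opposite strands.
Abcg5: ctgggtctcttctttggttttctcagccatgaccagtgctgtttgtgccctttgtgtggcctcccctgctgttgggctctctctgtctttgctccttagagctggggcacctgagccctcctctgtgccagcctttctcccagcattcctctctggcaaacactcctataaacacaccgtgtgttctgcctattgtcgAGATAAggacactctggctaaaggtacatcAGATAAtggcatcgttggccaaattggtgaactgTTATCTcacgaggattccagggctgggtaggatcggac
Abcg8: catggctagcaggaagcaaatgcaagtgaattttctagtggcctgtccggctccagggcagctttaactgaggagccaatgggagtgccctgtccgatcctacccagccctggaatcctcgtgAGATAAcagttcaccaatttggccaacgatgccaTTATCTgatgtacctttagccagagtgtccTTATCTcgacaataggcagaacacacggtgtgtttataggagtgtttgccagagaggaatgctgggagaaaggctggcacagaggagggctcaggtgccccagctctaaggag

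Of the 10 genes, 8 had a promoter in the RefSeq table, some with 2 windows. None of the 4 motifs searched for was found in the windows of Cyp27a1 and Slc10a1. The window of Nr0b2 held 2 matches, and that of Nr1h4 1, to motifs of the search (TCAAGG, the core bound by NR5A2, in 14.4% of windows, and AGATAA). Within a window, no match overlapped another. These matches describe letters of the reference sequence and not binding in these livers.

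Nr1h4, which encodes FXR, had the narrowest range of the 9 tested probes, 1.37-fold. Its signals were 2943, 3003 and 3060 in AD + OPP livers, and 2791, 2876, 3213 and 3834 in AD + DW livers. The AD + OPP livers thus lay inside the range of the AD + DW livers. With limma the log2 fold change was -0.07 ± 0.15 (SE), with a 95% interval from -0.41 to 0.26 and an adjusted p of 0.904. Nr0b2, which FXR induces, had signals between 5.1 and 13.1 in AD + OPP livers and between -19.4 and 14.5 in AD + DW livers, none of which was detected.

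Several of the genes ranked the mice alike. For Cyp8b1, Cyp7b1 and Abcg8, the 3 lowest livers were the same, AD + OPP livers 2 and 1 and AD + DW liver 4. Among the 6007 tested probes, 8.44% had these 3 livers lowest. This order was picked out after the values had been seen and carries no test. Cyp7a1 had another order, with AD + DW liver 2 lowest although that liver was the highest for Cyp8b1, Cyp7b1 and Abcg8. Abcg5 had AD + DW liver 4 among its higher livers.

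Acute phase genes, which hepatocytes induce in inflammation, moved over the same livers. Saa1 had signals of 74099, 71462 and 5758 in AD + OPP livers, and of 2327, 1979, 19629 and 70941 in AD + DW livers. The highest 3 livers for Saa1 were therefore the lowest 3 for Cyp8b1, Cyp7b1 and Abcg8. All 15 acute phase genes were tested and all 15 were higher in AD + OPP livers in their fitted means, beside 2963 of all 6007 tested liver probes. Past an adjusted p of 0.05 with limma were 0. At an unadjusted p under 0.05 there was 1, beside 3.95% of all tested liver probes that were higher at such a p. The list averaged 14.32, 14.27 and 12.17 on the log2 scale in AD + OPP livers and 11.59, 11.54, 12.61 and 14.03 in AD + DW livers. Of 8 neutrophil markers 2 were tested, and the list averaged 10.13, 9.76 and 4.60 on the log2 scale in AD + OPP livers, against 5.14, 4.81, 8.48 and 10.01 in AD + DW livers. With the acute phase mean as a covariate, an alternative chosen after the data had been seen, the log2 fold change was -0.51 for Cyp8b1, -0.14 for Cyp7b1, -0.31 for Abcg5 and -0.03 for Abcg8. The part of inflammation in these values was not tested.

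**Figure D3:**
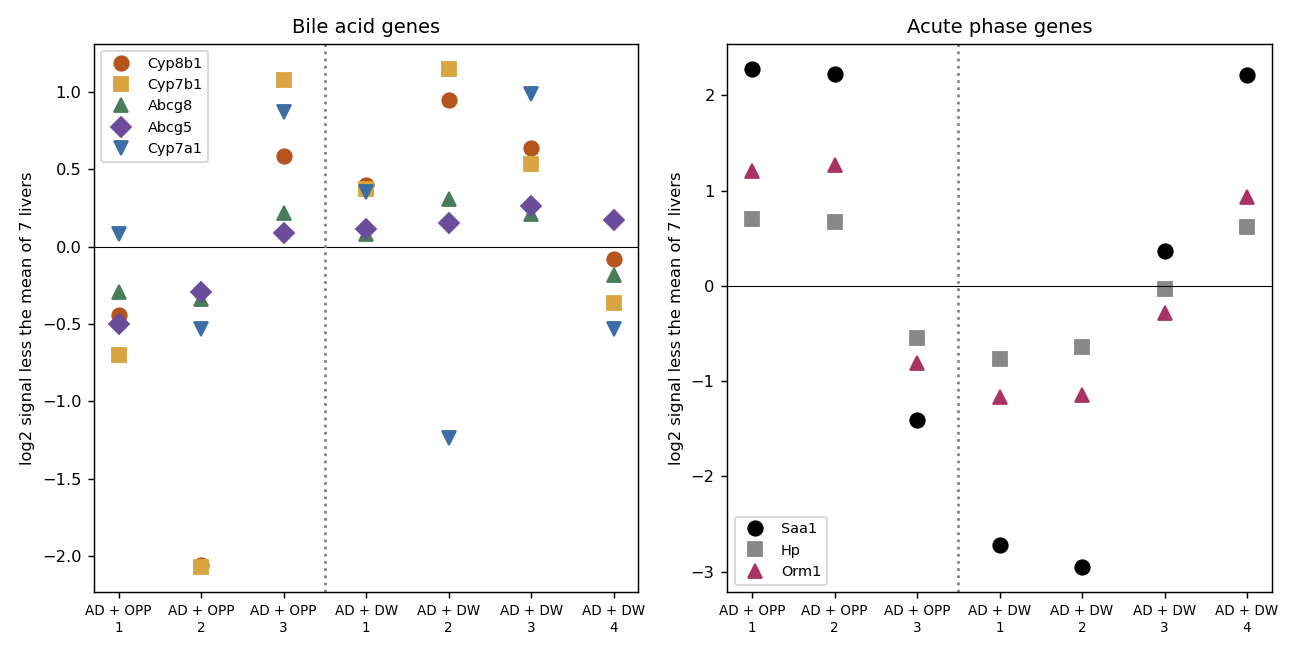
Log2 signal of 5 bile acid genes (left panel) and 3 acute phase genes (right panel) in each liver, as the difference from the gene's own mean over the 7 livers (vertical axis), with AD + OPP livers left of the dotted line and AD + DW livers right of it. AD + OPP livers 1 and 2 and AD + DW liver 4 were the lowest for Cyp8b1, Cyp7b1 and Abcg8 and the highest for Saa1, at 74099, 71462 and 70941.

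Other genes of the pathway gave a wider view. Among 16 further genes of bile acid synthesis and conjugation, 11 were tested, of which 4 were higher and 7 lower in AD + OPP livers (median log2 fold change -0.04). Of these 0 passed the adjusted threshold with limma, and 2 of 11 had an unadjusted p under 0.05, both lower, beside 4.29% of all tested liver probes that were lower at such a p. Akr1d1, the reductase that shapes the steroid ring of bile acids, had signals of 202, 125 and 95.9 in AD + OPP livers and of 226.5, 259, 218 and 230 in AD + DW livers, so that the groups did not overlap, as for 4.36% of all tested liver probes in this direction (log2 fold change -0.79 ± 0.24, SE; adjusted p = 0.590). The third AD + OPP signal was not detected, so Akr1d1 entered the test only through the AD + DW livers, where it was higher. It is part of the count of 2. Neither that count nor the lack of overlap of Akr1d1 can therefore be weighed against the shares of 4.29% and 4.36%. Akr1c6, another aldo-keto reductase, had a log2 fold change of -1.04 and Akr1c14 one of -0.64, with overlapping groups. Acox2, which shortens the side chain in peroxisomes, had the highest value of the list at 0.37 (adjusted p = 0.688).

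Transporters outside the main set were described in the same way. Of 14 genes 11 had a probe and 6 were tested, 2 higher and 4 lower (median -0.46). Past the adjusted threshold were 0, and 3 of 6 were lower at an unadjusted p under 0.05 with limma, beside 4.29% of all tested liver probes. Slco1a1 and Abcg2, among these 3, were detected on 2 of 3 AD + OPP livers and on every AD + DW liver. They entered the test only through the group where they were higher. Neither the count nor the median can therefore be weighed against all tested probes. Slco1a1, an organic anion carrier of the sinusoidal membrane, had signals of 100.5, 5.2 and 358 in AD + OPP livers, and of 816, 862, 566 and 220 in AD + DW livers. AD + OPP liver 2 was not detected there and its signal was raised to the floor of 10, so the log2 fold change of -2.94 (adjusted p = 0.590) depends on that floor. Abcg2, an exporter of conjugates, had signals of 109, 43.8 and 129 in AD + OPP livers, and of 282, 271, 216 and 133 in AD + DW livers. Its groups did not overlap, which held for 4.36% of tested probes in this direction. Because of the way Abcg2 entered the test, its lack of overlap cannot be weighed against that share. Its log2 fold change was -1.35 ± 0.41 (SE), with an adjusted p of 0.590 and AD + OPP liver 2 not detected. Slco1a4, a relative of Slco1a1, had a log2 fold change of -0.62, and Abcb4, which moves phospholipid into bile, one of -0.29.

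Regulators of these genes had log2 fold changes between -0.60 and 0.57 in the liver. Of 19 genes 14 were tested, 8 higher and 6 lower, with a median of 0.05. With limma 0 had an unadjusted p under 0.05, beside 8.24% of all tested liver probes. The smallest p belonged to Prox1, a repressor partner of HNF4A, with a log2 fold change of 0.51, and to Cebpa, a hepatocyte transcription factor, with -0.60 (adjusted p = 0.601 and 0.606). Ppara, the fatty acid receptor, had -0.57, and Nr1i2, the xenobiotic receptor PXR, had -0.22. Ppara was detected on 2 of 3 AD + OPP livers and on every AD + DW liver. It thus entered the test only through the group where it was higher.

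**Figure D4:**
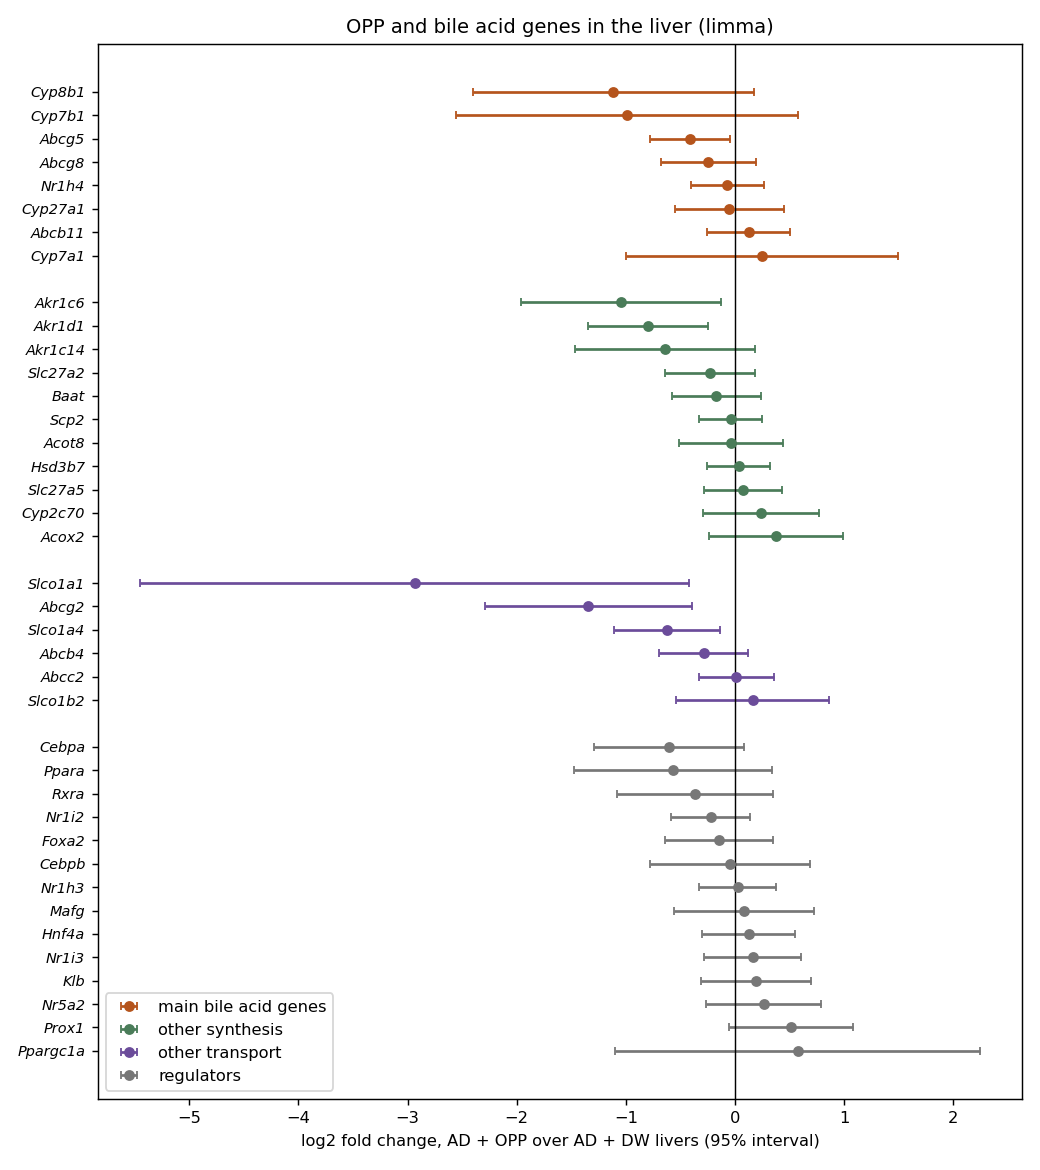
Log2 fold change of AD + OPP over AD + DW livers (horizontal axis) with its 95% interval from limma for each tested gene (rows), grouped as the main bile acid genes, other genes of synthesis, other transporters and regulators. The value of Abcg5 was -0.41 and its interval did not reach 0, while those of Cyp8b1 and Cyp7b1 spanned 0, and 0 of these genes passed the adjusted threshold.

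Across the 7 livers, the tested probes most like Cyp7a1 by Pearson correlation of log2 signals were those of Rpl7l1 (0.93), Mrpl11 (0.91), Slc31a1 (0.91), Nudc (0.90) and Slco1b2 (0.90). Those most like Cyp8b1 were Nat8 (0.99), Klkb1 (0.99), Fam102a (0.99), Cyp4a12b (0.99) and Ces3b (0.98). They were the highest of 5157 probes compared and are descriptions over 7 points from shared arrays. Nat8 had signals of 358, 62.9 and 1251 in AD + OPP livers, and of 1079, 2766.5, 1292.5 and 610 in AD + DW livers, the order of livers that Cyp8b1 had at its low end.

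In the spleen, Cyp27a1, which macrophages also express, had signals of 67.0, 104 and 70.7 in AD + OPP mice, and of 155, 98.3 and 204 in AD + DW mice. AD + OPP spleen 2 exceeded the lowest AD + DW spleen, so the groups overlapped. The log2 fold change was -0.89 ± 0.31 (SE), with a 95% interval from -1.62 to -0.15, an unadjusted p of 0.0243 and an adjusted p of 0.213 with limma. The difference was smaller with other normalizations, at -0.63 with neqc, -0.46 with median scaling, -0.38 with normexp and quantile normalization and -0.29 with quantile normalization alone. Median scaling and quantile normalization alone were run on the unnormalized signals, which keep their background, so these sizes do not reflect the normalization only. It was -0.72 with array weights and stayed at -0.89 with other floors, detection filters and variance models. The acute phase list averaged 6.72, 6.34 and 6.65 on the log2 scale in AD + OPP spleens, and 5.39, 5.76 and 5.79 in AD + DW spleens. These levels did not overlap, so a fit with them as a covariate can hardly tell their part from that of OPP. That fit gave -0.077 for Cyp27a1, with an unadjusted p of 0.934 with limma, and decides nothing about either. In the spleen 16.5% of 6664 tested probes had an unadjusted p under 0.05 and 0% passed the adjusted threshold. Of 7 measured macrophage markers 4 were tested and all 4 were lower in AD + OPP spleens, 2 of them at an unadjusted p under 0.05 with limma. This was not particular to macrophages. All tested endothelial (4), stellate cell (3), hepatocyte (2) and B and T cell (5) markers were lower too, while all 8 neutrophil markers were higher. Of all probes tested in the spleen, 58.2% were lower. The macrophage list averaged 6.92, 7.14 and 7.29 on the log2 scale in AD + OPP spleens and 7.36, 7.19 and 8.04 in AD + DW spleens. Its part in the Cyp27a1 value was not tested.

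Spleens also differed in markers of exocrine pancreas, an organ that borders the spleen. On the log2 scale they averaged 14.55, 5.70 and 5.35 in AD + OPP spleens, and 14.92, 5.14 and 16.16 in AD + DW spleens. Without the 3 spleens above 10, an alternative chosen after the data had been seen, 1 AD + DW spleen remained and the log2 fold change of Cyp27a1 was -0.20, with an unadjusted p of 0.561 and an adjusted p of 0.858. The lone spleen was assumed to vary like the AD + OPP spleens. In the heart, Cyp27a1 had signals of 171, 185 and 180 in AD + OPP mice, and of 116, 248 and 231 in AD + DW mice. The AD + OPP hearts lay inside the range of the others, and the difference was -0.08 ± 0.28 on the log2 scale (SE; adjusted p = 0.999). In the heart 3.63% of probes had an unadjusted p under 0.05, and 0% passed the adjusted threshold.

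Whether OPP acted on Cyp27a1 unequally between organs was tested in one limma fit over the 19 arrays, as a difference of log2 fold changes. The organs came from the same groups of mice, and the labels do not give the mouse of each array. The fit treated the 19 arrays as independent. It was 0.83 for liver minus spleen, with a 95% interval from -0.02 to 1.69 and an adjusted p of 0.407. It was 0.02 for liver minus heart (interval -0.84 to 0.89, adjusted p = 0.999) and -0.81 for spleen minus heart (interval -1.71 to 0.08, adjusted p = 0.616). None passed the threshold. The signal levels themselves were not compared between organs, since each organ was normalized on its own.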

How the data were processed

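Organ RNA was hybridized by the authors to Illumina MouseRef-8 BeadChips, from RNA samples chosen for their integrity, and outlier arrays had been removed by them before deposit. The deposited signal intensity of each probe was normalized per organ in BeadStudio 1.5.1.3 with the rank-invariant option, per the labels, and each array's normalized signal was checked to be a straight line of its unnormalized one. The deposited Detection Level stands for 1 minus a detection p-value. No depth applies to arrays, and their number limits the precision.

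Values under 10 were set to 10 and log2 was taken. Testing in an organ required a Detection Level above 0.99 on every array of either group. Groups were compared two-sided within an organ with limma 3.58.1 (statmod 1.5.0, under R 4.3.3), with Benjamini-Hochberg adjustment over all tested probes and a threshold of 0.05. The script was tested on simulated data. Gene symbols came from the platform annotation, which named 19398 probes with 1 gene and left 4650 unnamed. Of 151 list entries, 130 had a probe. A gene with several probes was counted by its brightest tested probe. The genes and lists were chosen with earlier results of these data known. Named genes were all 10 genes, the 4 with the smallest p of each further pathway list, any detected in all livers of 1 group and 0 of the other (there were 0), and the 5 probes most correlated with Cyp7a1 and with Cyp8b1. Saa1, the marker lists and the 3 regulators tested in the spleen were named besides these.

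Alternatives were other floors, normalizations, filters, variance models, array weights, a joint fit, the replicate number as a block, the methods' t-test, single arrays left out and the mean of a gene's probes. A covariate of acute phase signal and the removal of spleens with pancreas transcripts were chosen after the data had been seen. Nothing states that replicates came from separate cages, so p-values measure the spread between these arrays. Promoters were from the RefSeq table for GRCm38.p6, searched for motifs on both strands.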

Additional observations from a re-analysis of the deposited data

Results flagged for a closer look

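Among 10 probes checked in the AD + DW livers, the brighter Cyp27a1 probe had 1 liver far from the others, replicate 2 at 6172, while the other 3 AD + DW livers had signals of 3981 to 4347. Its gap to the nearest liver was 0.833 of the group's range, and about 1 group in 20 would show such a gap by chance. As 10 probes were checked, this rate does not hold for a gap picked from among them. The dimmer Cyp27a1 probe had 715 in that liver, inside the AD + DW range of 591 to 835. AD + DW replicate 2 was also the highest of the 7 livers for Cyp8b1, Cyp7b1 and Abcg8 and the lowest for Cyp7a1.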

How the results depend on the processing

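The count of bile acid genes past the adjusted threshold was 0 in the liver, the spleen and the heart under every alternative that was run, including each fit without 1 array. The count at an unadjusted p under 0.05 was 1 in the liver (Abcg5). It was 0 with quantile normalization, with neqc, with normexp and quantile normalization, and with the acute phase covariate, 2 in the joint fit over 19 arrays, 3 with array weights, and 0 to 4 without 1 liver. In the spleen it was 1, and 0 with quantile normalization, without a detection filter, with the methods' t-test, with the acute phase covariate and without the spleens with pancreas transcripts, and 0 to 1 without 1 spleen. In the heart it was 0, and 0 to 1 without 1 heart.

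Differences near 0 changed sign. The log2 fold change of Cyp7a1 was -0.16 with array weights and -0.13 to 0.61 without 1 liver, that of Cyp27a1 in the liver 0.046 with the acute phase covariate and -0.21 to 0.13 without 1 liver, that of Abcb11 -0.0092 to 0.24 and that of Nr1h4 -0.13 to 0.023 without 1 liver. In the heart Cyp27a1 lay between -0.42 and 0.12 without 1 heart. Cyp8b1, Cyp7b1, Abcg5 and Abcg8 stayed below 0 under all alternatives run, at -1.73 to -0.41, -1.81 to -0.24, -0.57 to -0.28 and -0.42 to -0.14 without 1 liver. Without AD + DW replicate 3, the liver with pancreas markers, Abcg5 was -0.38 with an unadjusted p of 0.0770. Cyp27a1 in the spleen was -0.29 on quantile normalized signals and -0.46 on median scaled signals, which both keep their background.

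Nothing states that replicate numbers pair the arrays. The deviations of arrays with the same number had correlations of -0.40 to 0.05 in the liver, 0.0015 to 0.19 among spleens, and -0.16 to 0.12 among hearts. Liver arrays with different numbers had -0.74 to 0.61. These correlations cannot settle a pairing, since deviations from the means of such small groups depend on each other. With the replicate number as a block, the count at an unadjusted p under 0.05 was 0 in the liver, Nr1h4 was 0.023 and Abcg5 -0.41. Small groups limit all of these comparisons.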

Other observations

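In the spleen, 3 of the 19 regulators of bile acid genes were tested. Nr1h3 (LXR-alpha), a sterol receptor that macrophages use, averaged 152.5 ± 9.56 in AD + OPP spleens and 263 ± 20.8 in AD + DW spleens (SD, n = 3 each) (log2 fold change -0.79, adjusted p = 0.0770). Cebpb, a transcription factor of inflammation and myeloid cells, averaged 1226 ± 105 in AD + OPP spleens and 510 ± 127 in AD + DW spleens (log2 fold change 1.29, adjusted p = 0.0712). Mafg, a small Maf protein that represses bile acid genes in the mouse liver, had a limma log2 fold change of 0.49 (adjusted p = 0.260). The value of 0.0712 was the smallest adjusted p of all 6664 probes tested in the spleen. It was also the smallest in the acute phase list and in the B and T cell list. Of all tested spleen probes 16.5% had an unadjusted p under 0.05 with limma, and 58.2% were lower. AD + OPP spleen 1 and AD + DW spleens 1 and 3, which had high pancreas markers, are included in these values. In the same spleens all 8 neutrophil markers were higher in AD + OPP mice, with a list mean of 13.36 to 13.58 on the log2 scale against 11.51 to 12.87 in AD + DW mice, and all 5 tested B and T cell markers were lower. Their part in these values was not tested.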
